A study of Mus musculus with 19 samples.

Results

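The comparison described here set mice given both lipopolysaccharide and sedanolide (co-treated) against mice given lipopolysaccharide alone. It used 10 of the 19 bulk RNA libraries of the series, the 5 labelled LPS_SDN and the 5 labelled LPS, chosen by those labels and not by any measured value. All libraries were poly(A) RNA of wild-type mice, taken from the medial prefrontal cortex. Lipopolysaccharide (LPS) is a component of the outer membrane of Gram-negative bacteria that activates innate immunity, and sedanolide is a phthalide found in celery.

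LPS-treated mice (n = 5) received saline by gavage for 8 days, beginning 3 days before the first LPS injection, and 1 mg/kg LPS into the peritoneum on 5 successive days. Co-treated mice (n = 5) had the same injections and, by gavage over the same 8 days, 20 mg/kg sedanolide in place of saline. The other libraries came from mice given sedanolide with saline injections (n = 5) and from control mice given saline by both routes (n = 4, replicates 1, 2, 4 and 5). The labels do not state whether each library is a separate mouse, so the p-values measure the spread between these samples, which may be partly technical. Age, sex and the interval between the last dose and dissection are not given in the sources used here. The study is understood to ask whether sedanolide acts on signalling of the complement fragment C3a through its receptor and on glycolysis in microglia during LPS-induced inflammation.

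As background, LPS is sensed in the periphery by a receptor complex that includes Tlr4 and Cd14, and the signal reaches the brain through the vessel wall, the meninges and circulating cytokines. Brain endothelium then displays adhesion molecules, neutrophils and monocytes attach to it, and microglia and astrocytes change their transcription. Cortical neurons, in turn, transcribe a set of immediate early genes (Arc, Fos, the Egr and Nr4a families) when they fire, and these transcripts decay quickly, so their levels follow recent synaptic activity.

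The 10 libraries held between 19083707 and 23997236 counts assigned to genes, with 21044992 ± 2036136 (SD, n = 5) in LPS and 22809279 ± 821648 (SD, n = 5) in co-treated libraries. That difference did not pass an exact two-sided permutation test (p = 0.119, adjusted p = 0.238 over the 4 library measures compared, smallest possible p 0.00794). The number of genes detected was 24900 ± 476 in LPS and 24310 ± 205 in co-treated libraries (exact permutation p = 0.0238, adjusted p = 0.0952). The libraries also differed in a marker of a neighbouring region. Cdhr1, a marker of olfactory bulb mitral and tufted cells, lay between 57.7 and 181 CPM (a gene's counts relative to the scaled library total) in LPS replicates 2, 3 and 4, and between 2.29 and 9.92 CPM in LPS replicates 1 and 5 and the 5 co-treated libraries. Those 3 LPS libraries also had the highest mean level of 33 meningeal and perivascular fibroblast genes, at 4.22, 3.45 and 4.09 log2 CPM, against 2.79 and 2.21 in LPS replicates 1 and 5 and 2.22 to 2.64 in the co-treated libraries. Slc17a7, the vesicular glutamate transporter of cortical excitatory neurons, was present in all 10 libraries at 1006 CPM or more. In bulk tissue, fewer cells of a type and less RNA per cell cannot be told apart.

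With all libraries, co-treated cortex differed from LPS cortex mainly by lower transcripts. Of 17757 genes tested, 350 (1.97%) passed an adjusted p of 0.05 in edgeR's quasi-likelihood test. Of these, 51 (0.287% of all tested) were higher and 299 (1.68%) were lower with sedanolide. With offsets for gene length and GC content the split was 179 higher and 367 lower. It was 14 higher and 21 lower in the libraries with Cdhr1 under 20 CPM, where LPS replicates 1 and 5 were left. With the mean level of the fibroblast genes as covariate it was 14 higher and 48 lower. The higher genes included activity-regulated genes and a few genes of sterol synthesis and protein folding. The lower genes included markers of neutrophils, monocytes, endothelium and astrocyte reaction. More than a 2-fold difference was reached by 8 of the higher and 132 of the lower genes. The median log2 fold change was 0.49 among the higher and -0.93 among the lower genes, against -0.01 over all genes tested, and 45 of the higher and 284 of the lower genes were protein coding. At an unadjusted p of 0.05, 1141 genes were higher and 2367 lower. In a plainer comparison, all 5 co-treated libraries lay above all 5 LPS libraries for 591 genes (3.33%) and below them for 817 genes (4.6%), among them 49 of the 51 and 255 of the 299 called genes. With no scaling factor these were 358 and 1043 genes. In the 10 fits that each left out 1 library, 114 of the 350 calls held every time, 18 of them higher and 96 lower. Leaving out LPS replicate 2, 3 or 4 gave totals of 141, 211 and 220, and leaving out co-treated replicate 1, 2, 3 or 5 gave 143, 196, 149 and 157. It was 590 without LPS replicate 5, and 548 and 551 without control replicates 1 and 4, which share the estimate of the spread.

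**Figure D1:**
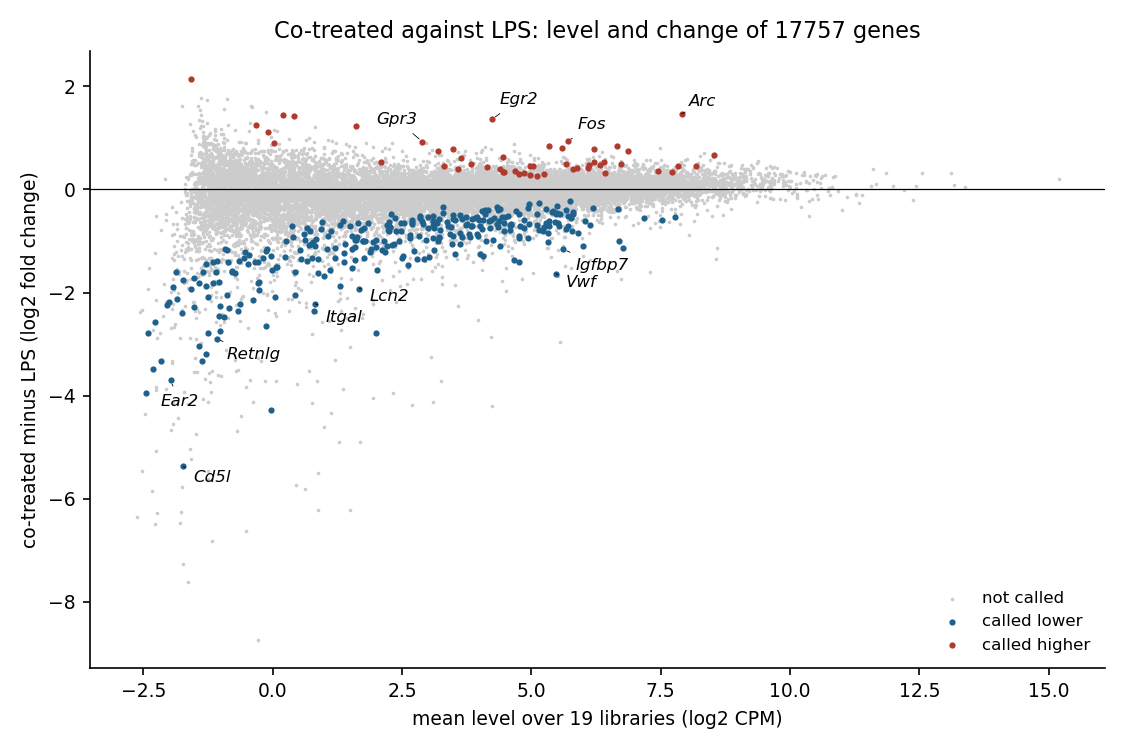
Log2 fold change of co-treated over LPS cortex (vertical axis) against the mean log2 CPM over all libraries (horizontal axis) for the 17757 genes tested, 1 point per gene, the 51 higher and 299 lower calls being coloured. The lower genes spread further from 0 than the higher ones.

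The strongest higher calls included immediate early genes. Which cells carried these transcripts was not measured in bulk tissue. Arc (ENSMUSG00000022602), which encodes a synaptic scaffold protein that drives internalization of glutamate receptors, was measured at 165, 99.6, 110, 175 and 104 CPM in LPS replicates 1 to 5 and at 340, 379, 357, 422 and 303 CPM in co-treated replicates 1 to 5. The lowest co-treated library stood well above the highest LPS library. The log2 fold change was 1.46 ± 0.17 (SE; adjusted p = 0.000154, edgeR). The 4 control libraries had 315, 344, 244 and 303 CPM, so Arc was lower in LPS than in control libraries (-1.21, adjusted p = 5.57e-05) and co-treated libraries did not differ from control by a called amount (0.26, adjusted p = 0.352).

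Egr2 (ENSMUSG00000037868), a zinc-finger transcription factor induced within minutes of stimulation, gave the smallest p-value in the comparison. Its levels were 8.84, 10.6, 8.18, 12.6 and 9.97 CPM in LPS libraries and 26.0, 29.3, 26.6, 24.2 and 22.6 CPM in co-treated libraries, and the groups did not overlap. The log2 fold change was 1.36 ± 0.11 (adjusted p = 3.81e-06, edgeR). Controls lay between 24.2 and 30.1 CPM. Against control, Egr2 changed by -1.47 in LPS and by -0.11 in co-treated libraries (adjusted p = 0.568).

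Fos, Junb and Nr4a1 were also higher, by smaller amounts. Fos, a component of the AP-1 factor, was at 30.0, 26.1, 26.8, 54.0 and 23.2 CPM in LPS libraries and at 57.9, 53.6, 64.4, 57.1 and 71.7 CPM in co-treated libraries. LPS replicate 4 stood among the co-treated values and the other 4 LPS libraries below all of them (0.93 ± 0.19, adjusted p = 0.0166, edgeR). Omitting either LPS replicate 2 or co-treated replicate 5 ended the Fos call. Junb, a partner of Fos, was at 91.2, 56.7, 70.0, 86.8 and 54.6 CPM in LPS and 118, 108, 132, 122 and 163 CPM in co-treated libraries, with no overlap (0.84 ± 0.13, adjusted p = 0.00243, edgeR). Nr4a1, an orphan nuclear receptor, lay between 64.2 and 92.3 CPM in LPS and between 118 and 141 CPM in co-treated libraries (0.75 ± 0.17, adjusted p = 0.0296, edgeR), and 6 of the 10 fits without 1 library lost that call. Fos and Nr4a1 were below control in co-treated libraries, at -0.75 and -0.68 (adjusted p = 0.0236 for both, edgeR).

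The promoters of 5 activity-regulated genes were read from RefSeq (GRCm38.p6) and searched for elements through which activity can act on transcription. They are the cyclic AMP response element TGACGTCA and its core TGACG, both bound by CREB, and the CArG box (CC, 6 bases of A or T, GG), bound by serum response factor. Both strands of the 250 bases before each start were searched, and elements farther away were not looked for. In 32851 promoter windows of that length TGACGTCA was found in 1.55%, TGACG in 17.8% and the CArG box in 1.47%. Capitals mark the matches, written 5′ to 3′ on the gene's strand, and CGTCA is that core on the reverse strand. Arc was not matched in the promoter set.
Egr2, upstream start, chr10:67537484-67537513 (+): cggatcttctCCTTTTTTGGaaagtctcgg
Egr2, downstream start, chr10:67537790-67537819 (+): cctcagtCCATATATGGgcagcgaCGTCAc
Fos, chr12:85473751-85473838 (+): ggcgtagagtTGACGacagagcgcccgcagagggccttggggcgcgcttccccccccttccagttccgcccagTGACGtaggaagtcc
Junb, chr8:84978840-84978864 (-): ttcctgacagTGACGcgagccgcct
Nr4a1, chr15:101266767-101266820 (+): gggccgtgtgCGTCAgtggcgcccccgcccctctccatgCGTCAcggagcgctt
Dusp1, chr17:26508598-26508673 (-): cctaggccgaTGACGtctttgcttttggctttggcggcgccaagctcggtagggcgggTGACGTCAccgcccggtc
Egr2 starts were printed only if they held a CArG box, and starts of the other genes only if they held a match. The printed matches therefore cannot be set against the shares above. In each of the 2 Egr2 starts printed the box began 72 bases before the start. The downstream start also had cores at 111 and 55 bases, the second printed. Dusp1 had the full element at 143 bases before its start. Of the 3 TGACG cores of Dusp1, at 191, 143 and 140 bases, the last 2 lie inside the full element. Fos had cores at 129 and 66 bases, Junb 1 at 106 bases, and Nr4a1 4 at 233, 213, 69 and 40 bases, of which the nearest 2 are printed. These matches describe the sequences and do not show that a factor was bound in these samples.

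Some phosphatases of the kinase pathways that activity engages, and the receptor gene Gpr3, were higher too. Dusp1, a phosphatase that switches off MAP kinases, was at 28, 20.9, 22.5, 38.7 and 19.5 CPM in LPS and 44.7, 41.6, 49.1, 47.6 and 50 CPM in co-treated libraries, with no overlap (0.85 ± 0.15, adjusted p = 0.00498, edgeR). Of 17 ERK phosphatases and feedback genes tested, 4 rose and none fell, the others being Dusp6 (0.79), Dusp14 (0.41) and Spry4 (0.43), with a list median of 0.14. Gpr3, a receptor that raises cyclic AMP without a ligand, was at 6.11, 5.94, 5.10, 4.89 and 4.23 CPM in LPS and 9.72, 10.7, 11, 9.42 and 9.22 CPM in co-treated libraries. Every co-treated library exceeded every LPS library (0.93 ± 0.11, adjusted p = 0.000165, edgeR), and co-treated libraries also exceeded control by 0.53 (adjusted p = 0.00539, edgeR).

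By list, 7 of 25 Egr, Nr4a and other immediate early factors rose and none fell (median 0.23). The count was 4 without LPS replicate 3 or without co-treated replicate 1, 3 or 5, 2 with the fibroblast index (the mean log2 CPM of the 33 fibroblast genes) as covariate, and 5 higher with 1 lower when the mean of olfactory bulb markers was the covariate. Egr1 lay between 185 and 319 CPM in LPS libraries and between 411 and 460 CPM in co-treated libraries (0.67, adjusted p = 0.0106, edgeR). The other 5 beside Egr2 were Nr4a1, Nr4a3 (0.53), Klf10 (0.81), Csrnp1 (0.61) and the clock gene Per1 (0.50). The mean of the 25 genes was 4.71 to 4.92 log2 CPM in LPS and 5.10 to 5.19 in co-treated libraries. Among 32 activity-regulated effectors, Arc, Gpr3, Arl4d (0.63) and the kinase gene Dyrk3 (0.79) rose and none fell (median 0.21). Of 10 AP-1 factors 2 rose, Fos and Junb, and the list median was -0.02. Atf3 and Fosb did not pass, at -1.31 and 0.20. Bdnf, a growth factor that follows activity more slowly, had 0.57 (adjusted p = 0.238, edgeR) and was not called. None of 36 glutamate and GABA receptor genes, 22 excitatory and 25 inhibitory neuron genes was called, with medians of 0.19 and 0.24 for the 2 neuron lists. As 1.97% of all genes tested were called, lists of these sizes could hold no call at that share.

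With only the libraries that had Cdhr1 under 20 CPM (LPS replicates 1 and 5 against the 5 co-treated), the Egr and Nr4a list median was 0.38 with 4 calls. Arc changed by 1.43 there (adjusted p = 0.0133), Egr2 by 1.47 (adjusted p = 0.000128) and Fos by 1.21 (adjusted p = 0.00148), all by edgeR. Junb was not called there (0.83, adjusted p = 0.0919).

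**Figure D2:**
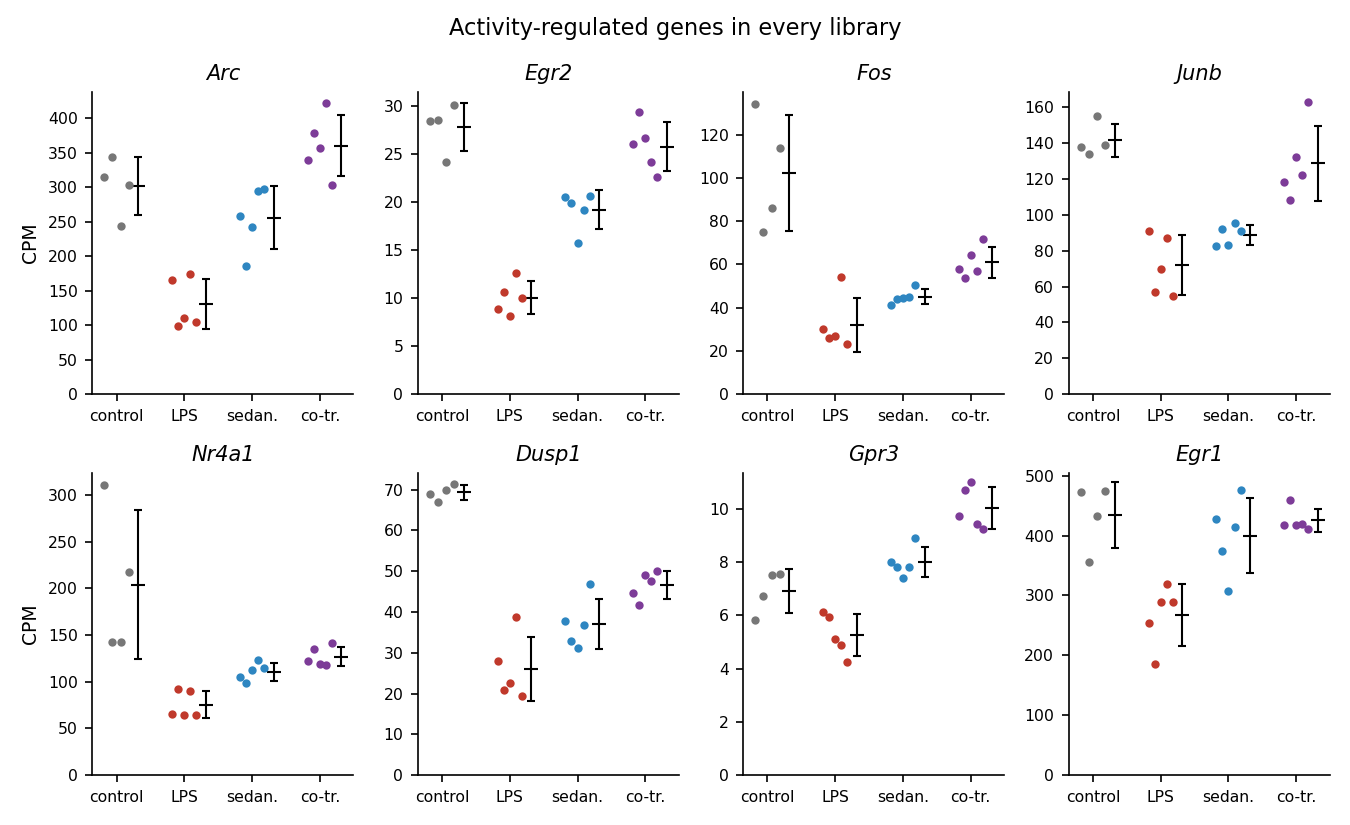
CPM (vertical axes) of 8 activity-regulated genes in control (n = 4), LPS, sedanolide and co-treated libraries (n = 5 each), 1 point per library with the group mean and SD. For Arc, Egr2, Junb, Dusp1, Gpr3, Nr4a1 and Egr1 all co-treated points lie above all LPS points, while for Fos LPS replicate 4 reaches 54.0 CPM, within the co-treated range.

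Transcripts of blood-derived neutrophils and monocytes were lower with sedanolide. Retnlg (ENSMUSG00000022651), a resistin-like protein made by neutrophils, was at 3.71, 2.58, 1.44, 2.37 and 1.71 CPM in LPS and 0.183, 0.440, 0.188, 0.442 and 0.302 CPM in co-treated libraries. The groups were far apart and the co-treated values rest on 4 to 10 counts per library (-2.90 ± 0.36, adjusted p = 0.000254, edgeR). S100a9 (ENSMUSG00000056071), a subunit of the granulocyte protein calprotectin, was at 14.9, 14.5, 13.6, 19.5 and 14.3 CPM in LPS and 4.26, 7.66, 4.09, 2.79 and 2.07 CPM in co-treated libraries, again without overlap. Its log2 fold change was -1.88 ± 0.36 (adjusted p = 0.0106, edgeR), and it remained above control by 1.86 (adjusted p = 0.0109). Among the libraries with little Cdhr1 the S100a9 change was -1.79 and was not called (adjusted p = 0.187).

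Itgal (ENSMUSG00000030830), the alpha chain of the leukocyte integrin that binds endothelial Icam1, was at 5.45, 13.6, 10.9, 9.48 and 10.4 CPM in LPS and 2.06, 2.02, 2.07, 2.70 and 1.85 CPM in co-treated libraries. All co-treated libraries were below the lowest LPS library, replicate 1 (-2.22 ± 0.26, adjusted p = 0.000165, edgeR). The change was -1.87 among the libraries with little Cdhr1 (adjusted p = 0.00615, edgeR). Against control Itgal was higher by 3.76 in LPS and by 1.54 in co-treated libraries (adjusted p = 0.00379, edgeR).

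Of 15 neutrophil genes tested, 9 fell and none rose, all 15 had negative fold changes, and the median was -1.60. The 15 are those of 20 listed that passed the expression filter. A rare gene could pass it through the LPS libraries alone. The count of negative fold changes and the median are therefore partly set by the filter. Beside Retnlg and S100a9 the 9 called genes were S100a8 (-1.56), the gelatinase Mmp9 (-1.61), the collagenase Mmp8 (-2.09), lactoferrin Ltf (-2.15), the chemokine receptor Cxcr2 (-1.60), the formyl peptide receptor Fpr2 (-1.93) and Trem1 (-2.57), an amplifier of LPS signalling. Csf3r, the receptor for granulocyte colony-stimulating factor, was not called (-0.21). The neutrophil-defining Ly6g was not among the genes tested. Between 5 and 9 of these genes were called when 1 library was left out, the fewest without co-treated replicate 1 or 3. In the libraries with little Cdhr1 the median was -1.65 with 2 calls. The mean of the 15 genes was 1.27 to 1.58 log2 CPM in LPS and -0.49 to 0.45 in co-treated libraries. The 9 erythroid genes tested, a measure of blood in the tissue, had a median of -0.10 with none called, but 1.12 in the libraries with little Cdhr1, 0.28 with the bulb covariate and 0.74 with the fibroblast covariate, again with none called. Their mean was 1.31 log2 CPM in LPS replicate 1, between 3.16 and 4.68 in LPS replicates 2 to 5, and between 3.03 and 4.06 in co-treated libraries.

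Of 20 monocyte genes 10 fell and none rose (median -1.14). They included Chil3 (-2.30), Plac8 (-3.19), the leukocyte surface sialoglycoprotein Spn (-2.08), the C-type lectin Clec4e (-3.34), and the ribonuclease gene Ear2 (-3.70), which has close paralogs that could share reads. Several of these are rare transcripts, so their fold changes are imprecise, and they too could pass the filter through the LPS libraries alone. Ear2 had 10 to 35 counts per LPS library and 0 to 3 per co-treated library, and Clec4e had 16 to 33 and 0 to 4. The mean of the 20 genes was 1.72 to 2.40 log2 CPM in LPS and 0.63 to 1.18 in co-treated libraries, and the libraries with little Cdhr1 gave a median of -0.72 with 4 calls. Ccr2 and Ly6c2, which mark the classical subset, were not called, each at -0.67. Of 21 lymphocyte genes 1 fell, the immunoglobulin light chain Igkc (-1.60), a call lost in 7 of the 10 fits without 1 library. As 1.68% of all genes tested fell, 1 call in a list of this size says little about the list.

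Genes of the vessel wall were lower as well. Vwf (ENSMUSG00000001930), von Willebrand factor, which endothelium stores and releases on activation, was at 142, 227, 140, 122 and 102 CPM in LPS and 42.8, 46.8, 46.7, 57.2 and 42.6 CPM in co-treated libraries. The groups did not overlap (-1.64 ± 0.22, adjusted p = 0.000834, edgeR). Igfbp7 (ENSMUSG00000036256), a secreted protein of vascular cells, was at 98.6, 151, 112, 97.8 and 102 CPM in LPS and 52.6, 50.6, 49.4, 53.3 and 44.8 CPM in co-treated libraries, with no overlap (-1.16 ± 0.15, adjusted p = 0.000414, edgeR). In the libraries with little Cdhr1 the changes were -1.36 for Vwf (adjusted p = 0.0409) and -0.99 for Igfbp7 (adjusted p = 0.00726, edgeR).

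Of 23 endothelial activation genes 7 fell and none rose (median -0.46). The count was 3 without LPS replicate 2, 4 without co-treated replicate 1, 2 with the bulb covariate, and 1 with the fibroblast covariate or among libraries with little Cdhr1. They included Selp (-3.94), the selectin that captures rolling leukocytes, at 7 to 34 counts per LPS library against 0 to 3 per co-treated library, and Icam1 (-1.07), the ligand of Itgal. Nos3, endothelial nitric oxide synthase, was at 19.4 to 38.7 CPM in LPS and 13.3 to 15.5 CPM in co-treated libraries (-0.86, adjusted p = 0.0106, edgeR). The Ly6 family members Ly6a (-0.81) and Ly6c1 (-0.44) fell as well. The Ly6c1 call was lost in all 10 fits without 1 library. Of 28 endothelial identity and barrier genes 6 fell and none rose (median -0.33), namely the receptors Tie1 (-0.78), Eng (-0.80) and Robo4 (-0.50), the transcription factor Sox17 (-0.72), the junction protein Esam (-0.43) and the glucose carrier Slc2a1 (-0.59). That count was 1 to 3 when LPS replicate 1 or 2, or co-treated replicate 1, 2, 3 or 5, was left out, and 11 when LPS replicate 5 was. It was 2 with the bulb covariate and 0 with the fibroblast covariate or among libraries with little Cdhr1, where the median was -0.34. The mean of the 28 genes was 5.77 to 6.04 log2 CPM in LPS and 5.46 to 5.66 in co-treated libraries. The amino acid transporter Slc38a5 (-1.35) and the laminin receptor Bcam (-0.93) also fell. Of 15 pericyte and smooth muscle genes 3 fell (Notch3, Myh11 and Mcam, median -0.53). The count was 0 or 1 in each of the 8 fits without LPS replicate 2, 3 or 4 or a co-treated library, and 7 without LPS replicate 5.

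The complement gene C3 (ENSMUSG00000024164), source of the C3a fragment, was at 10.4, 16, 12.3, 10.2 and 11.7 CPM in LPS and 4.86, 5.37, 5.41, 4.73 and 7.07 CPM in co-treated libraries, without overlap (-1.14 ± 0.24, adjusted p = 0.0177, edgeR). It stayed above control by 2.58 in co-treated libraries (adjusted p = 1.12e-05, edgeR). The C3 call was lost without LPS replicate 2, co-treated replicate 1 or co-treated replicate 3, and among libraries with little Cdhr1 (-0.99, adjusted p = 0.195). Its receptor C3ar1 (ENSMUSG00000040552), carried in brain mainly by microglia, was at 14.6, 13.5, 16.1, 12.7 and 18.5 CPM in LPS and 15.7, 13.2, 14.3, 16.5 and 11 CPM in co-treated libraries. The receptor's groups overlapped throughout (-0.09 ± 0.17, adjusted p = 0.795, edgeR), at a level above control by 2.04 in LPS and 1.95 in co-treated libraries. C1qa, the microglial initiator of the classical pathway, also overlapped (169 to 228 against 170 to 215 CPM, -0.13, adjusted p = 0.523). Of 22 complement genes 3 fell, C3, the protease C1s1 (-0.69) and the integrin chain Itgb2 (-0.56), and none rose (median -0.48). The complement count was 0 or 1 when LPS replicate 2 or 3, or co-treated replicate 1, 2, 3 or 5, was left out, and 5 when LPS replicate 5 was.

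Calls among microglial genes lay in the activated list and not in the homeostatic list. None of 18 homeostatic microglia genes was called (median 0.02), Tmem119 being at -0.12. Aif1, which encodes the microglial marker Iba1, was at 14.1 to 29.9 CPM in LPS and 12.1 to 22.6 CPM in co-treated libraries (0.01, adjusted p = 0.983, edgeR). Of 32 activated microglia genes 5 fell and none rose (median -0.14), while 1.68% of all genes tested fell. These were the oxidase subunit Cybb (-1.33), lysozyme Lyz2 (-0.79), galectin Lgals3 (-1.51), the scavenger receptor Msr1 (-1.39) and the Fc receptor Fcgr4 (-0.91), all of which are also made by monocytes, macrophages or neutrophils. Of the 32 genes, 1 to 3 were called in each of the 8 fits without LPS replicate 2, 3 or 4 or a co-treated library. None of 21 cytokine, chemokine and receptor genes (median -0.18), 18 NF-kB subunit and feedback genes (-0.22) or 17 MHC class I genes (-0.27) was called. Lists of these sizes, the homeostatic one included, could hold no call at the all-gene share of 1.97%. Il1b had -0.39 (adjusted p = 0.467). Of 39 interferon-stimulated genes 2 fell, Ifitm1 (-1.16) and Gbp2 (-0.54). The interferon count was 0 or 1 in each of the 7 fits without LPS replicate 2, 3 or 4 or co-treated replicate 1, 3, 4 or 5, and 4 without LPS replicate 1.

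Glycolysis genes showed 1 call among 30, near the share of 1.97% over all genes tested, and a median of 0.11. That call was Slc2a1, the glucose carrier of the blood-brain barrier, at 350, 344, 265, 246 and 241 CPM in LPS and 188, 169, 194, 216 and 191 CPM in co-treated libraries. No co-treated library reached the LPS range (-0.59 ± 0.13, adjusted p = 0.0209, edgeR), and 6 of the 10 fits without 1 library lost the call. Hk2, the inducible hexokinase, was at 17.2, 15.6, 15.8, 14.8 and 17.2 CPM in LPS and 14.1, 11.3, 13.6, 17.5 and 13.7 CPM in co-treated libraries. These overlapped through co-treated replicate 4 (-0.20 ± 0.13, adjusted p = 0.377, edgeR), and Hk2 was above control by 1.58 in LPS and 1.38 in co-treated libraries. Pfkfb3, which makes the activator of phosphofructokinase, had -0.02 ± 0.08 (adjusted p = 0.913), Hif1a -0.08 and Pkm 0.17, none called. Ldha, lactate dehydrogenase A, was at 229 to 309 CPM in LPS and 340 to 397 CPM in co-treated libraries, groups that did not overlap although its adjusted p was 0.145 (0.37 ± 0.13, edgeR).

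**Figure D3:**
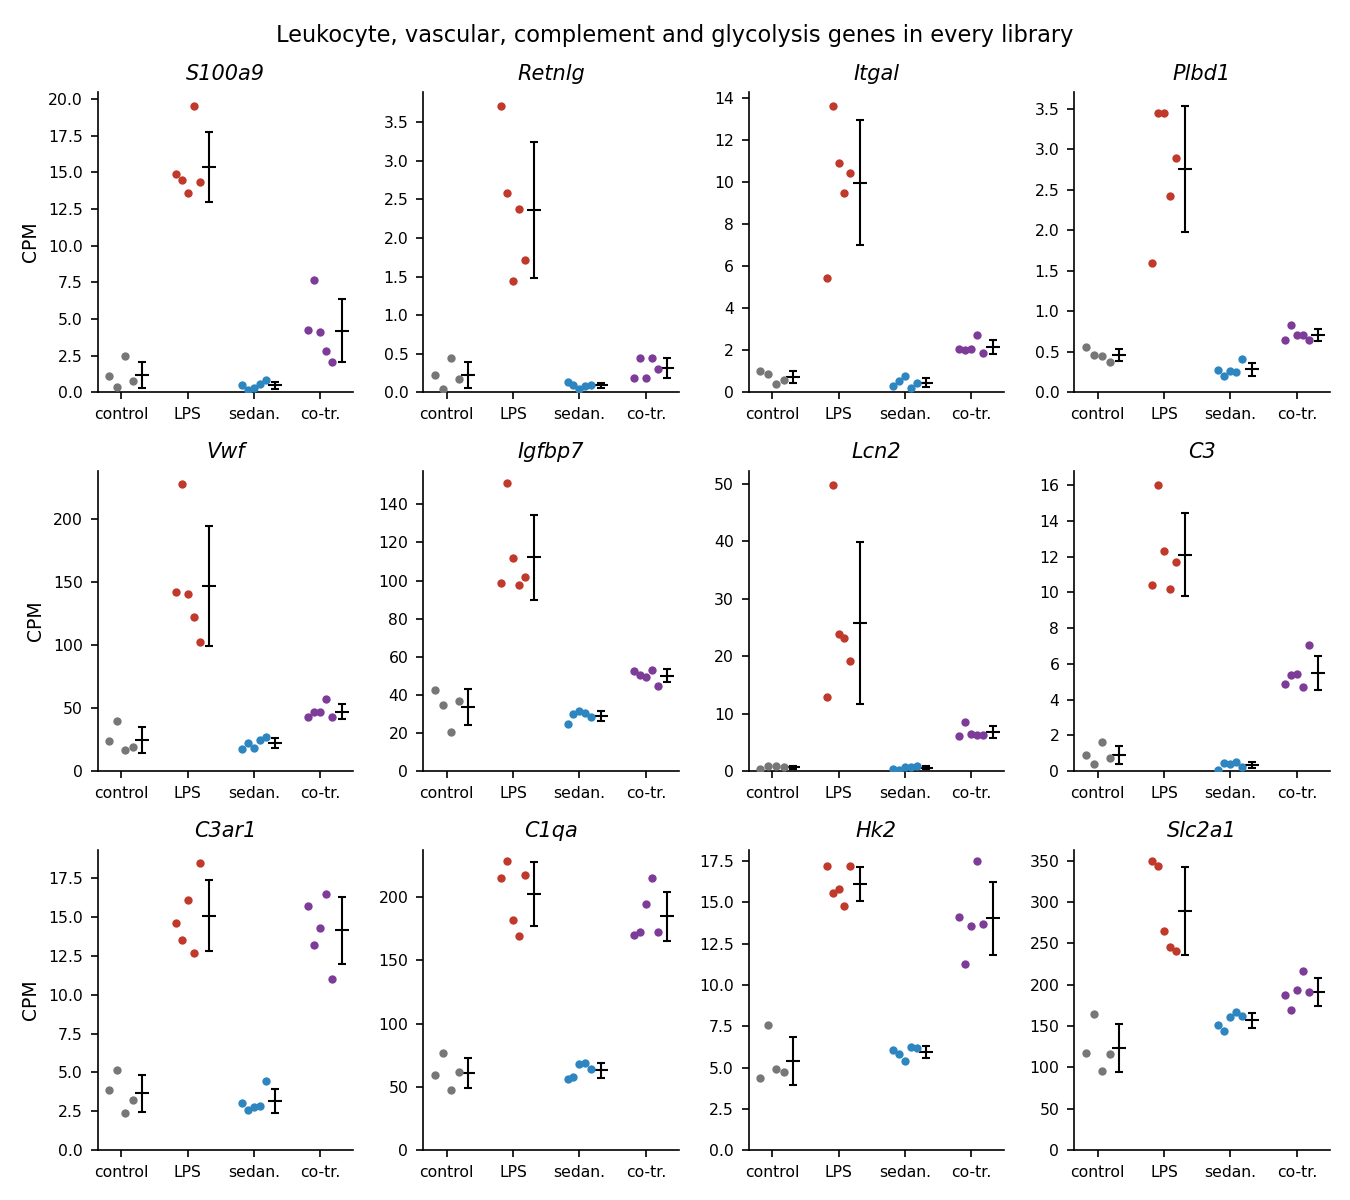
CPM (vertical axes) of 12 leukocyte, vascular, acute-phase, complement and glycolysis genes in the 4 groups, 1 point per library with the group mean and SD. S100a9, Retnlg, Itgal, Vwf, Igfbp7, Lcn2 and C3 separate LPS from co-treated libraries, whereas C3ar1, C1qa and Hk2 overlap.

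Acute-phase and reactive astrocyte genes were partly lower. Lcn2, lipocalin 2, an iron-scavenging protein made by reactive astrocytes, endothelium and neutrophils, was at 12.9, 49.7, 23.9, 23.2 and 19.2 CPM in LPS and 6.19, 8.58, 6.54, 6.37 and 6.34 CPM in co-treated libraries. LPS libraries varied widely, yet all were above the co-treated ones (-1.92 ± 0.29, adjusted p = 0.00199, edgeR). Of 19 acute-phase and STAT3 genes 4 fell, among them haptoglobin Hp (-2.65), and Junb rose (median -0.59). The lower count was 2 when LPS replicate 2, 3 or 4, or co-treated replicate 1, 3 or 5, was left out, and 7 when LPS replicate 5 was. The LPS-binding protein gene Lbp fell by 2.36 on the log2 scale and, with Trem1, was called among 16 LPS recognition genes. Of 30 reactive astrocyte genes 9 fell and none rose (median -0.62), including the intermediate filament Vim (-0.998) and the protease inhibitor Serpina3n (-1.03), the latter lost in 9 of the 10 fits without 1 library. The count was 3 to 5 in each of the 6 fits without LPS replicate 2 or 4 or co-treated replicate 1, 3, 4 or 5. The filament gene Gfap was at 449 to 844 CPM in LPS and 337 to 482 CPM in co-treated libraries and was not called (-0.47, adjusted p = 0.433). None of 18 astrocyte identity or 23 oligodendrocyte genes was called, as can happen in lists of these sizes at the all-gene share of 1.97%.

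Targets of the glucocorticoid receptor, which stress and inflammation activate, moved in both directions. Fkbp5, the chaperone that restrains that receptor, was at 69.2, 66.8, 52.9, 51.2 and 42.6 CPM in LPS and 33.1, 29.0, 35.1, 35.7 and 36.8 CPM in co-treated libraries. The groups did not overlap (-0.74 ± 0.12, adjusted p = 0.00422, edgeR), and co-treated libraries did not differ from control by a called amount (0.31, adjusted p = 0.138). Of 30 glucocorticoid response genes 7 fell and 2 rose (median -0.23). The lower count was 4 without LPS replicate 2 or co-treated replicate 2, 3 or 5, and 1 among libraries with little Cdhr1, and only 1 rose in each of the 7 fits without LPS replicate 1, 3 or 4 or co-treated replicate 1, 3, 4 or 5. The fallen genes included the lipid-droplet protein Plin4 (-1.69), transglutaminase Tgm2 (-1.10), Sult1a1 (-1.19) and Hif3a (-1.004), with Lcn2 and Slc2a1 also on this list, and those that rose were Dusp1 and Per1. Xdh, xanthine dehydrogenase, was at 8.57 to 13.2 CPM in LPS and 4.78 to 6.46 CPM in co-treated libraries (-0.90, adjusted p = 0.00315, edgeR). Fkbp5 was not called among the libraries with little Cdhr1 (-0.71, adjusted p = 0.0647).

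Sterol synthesis genes leaned upward. Cyp51, lanosterol demethylase, was at 57.9, 58.6, 57.3, 61.0 and 68.3 CPM in LPS and 94.8, 76.7, 88.1, 88.7 and 90.8 CPM in co-treated libraries, with no overlap (0.54 ± 0.11, adjusted p = 0.0168, edgeR). Insig1, a sterol-sensing brake on the pathway, was at 44.0 to 56.9 CPM in LPS and 63.6 to 74.0 CPM in co-treated libraries (0.47 ± 0.10, adjusted p = 0.0181, edgeR). Those 2 of 24 genes rose, against 0.287% of all genes tested, and all 24 had positive fold changes with a median of 0.29. For 11 of them all co-treated libraries lay above all LPS libraries, as did 3.33% of all genes tested. Msmo1, a sterol methyl oxidase, had 0.65 (adjusted p = 0.0757) and was not called. The list median of LPS against control was -0.44. Neither call held without co-treated replicate 1, and 1 held without LPS replicate 2 or 3. With the bulb or the fibroblast index as covariate none of the 24 was called and the median was 0.17. The heat-shock genes Dnajb1 (0.47) and Hsph1 (0.45) rose among 17, neither of them without LPS replicate 2 or 4 and 1 of them without LPS replicate 1 or co-treated replicate 1, 2, 3 or 5. None of 34 nuclear respiratory chain genes was called (median 0.11), as can happen in a list of this size at the all-gene share of 1.97%.

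Markers of olfactory bulb and of meningeal and perivascular fibroblasts were highest in the 3 LPS libraries with high Cdhr1. In LPS replicate 5 they lay in or near the co-treated range. All 33 meningeal and perivascular fibroblast genes had negative fold changes (median -0.93), with 2 called. That count was 0 without LPS replicate 2, 3 or 4 or any 1 co-treated library, 4 without LPS replicate 1 and 15 without LPS replicate 5. The 14 olfactory bulb genes had a median of -4.17 with none called, at 0.52 log2 CPM in LPS replicate 5 and -0.26 to 0.52 in co-treated libraries. Of 9 choroid plexus genes 2 fell (median -1.31), 1 of them in each of the 8 fits without LPS replicate 1, 2 or 4 or a co-treated library, and none of 11 striatum genes was called. The striatum mean was highest in LPS replicate 1, at 4.55 log2 CPM. It was 3.22 to 3.43 in LPS replicates 2 to 5 and 3.07 to 3.54 in co-treated libraries. LPS replicate 1 is among the libraries with little Cdhr1, so that subset is not free of neighbouring tissue. Of 16 border macrophage genes, which mark macrophages of the meninges and perivascular spaces, 6 fell and none rose (median -1.002), including the haemoglobin receptor Cd163 (-1.40), the sialic acid receptor Siglec1 (-2.22) and the scavenger receptor Stab1 (-0.74). Cd163 was at 3.71, 9.73, 5.84, 5.75 and 2.41 CPM in LPS and 2.43, 1.94, 2.16, 2.74 and 1.12 CPM in co-treated libraries. LPS replicate 5 fell within the co-treated range, and the highest values were in the 3 LPS libraries with high Cdhr1. The count was 0 without LPS replicate 2 or 3 or co-treated replicate 3 or 5, 1 or 2 without LPS replicate 4 or co-treated replicate 1, 2 or 4, and 0 among libraries with little Cdhr1, where the medians were -0.29 for border macrophages and -0.11 for fibroblasts.

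**Figure D4:**
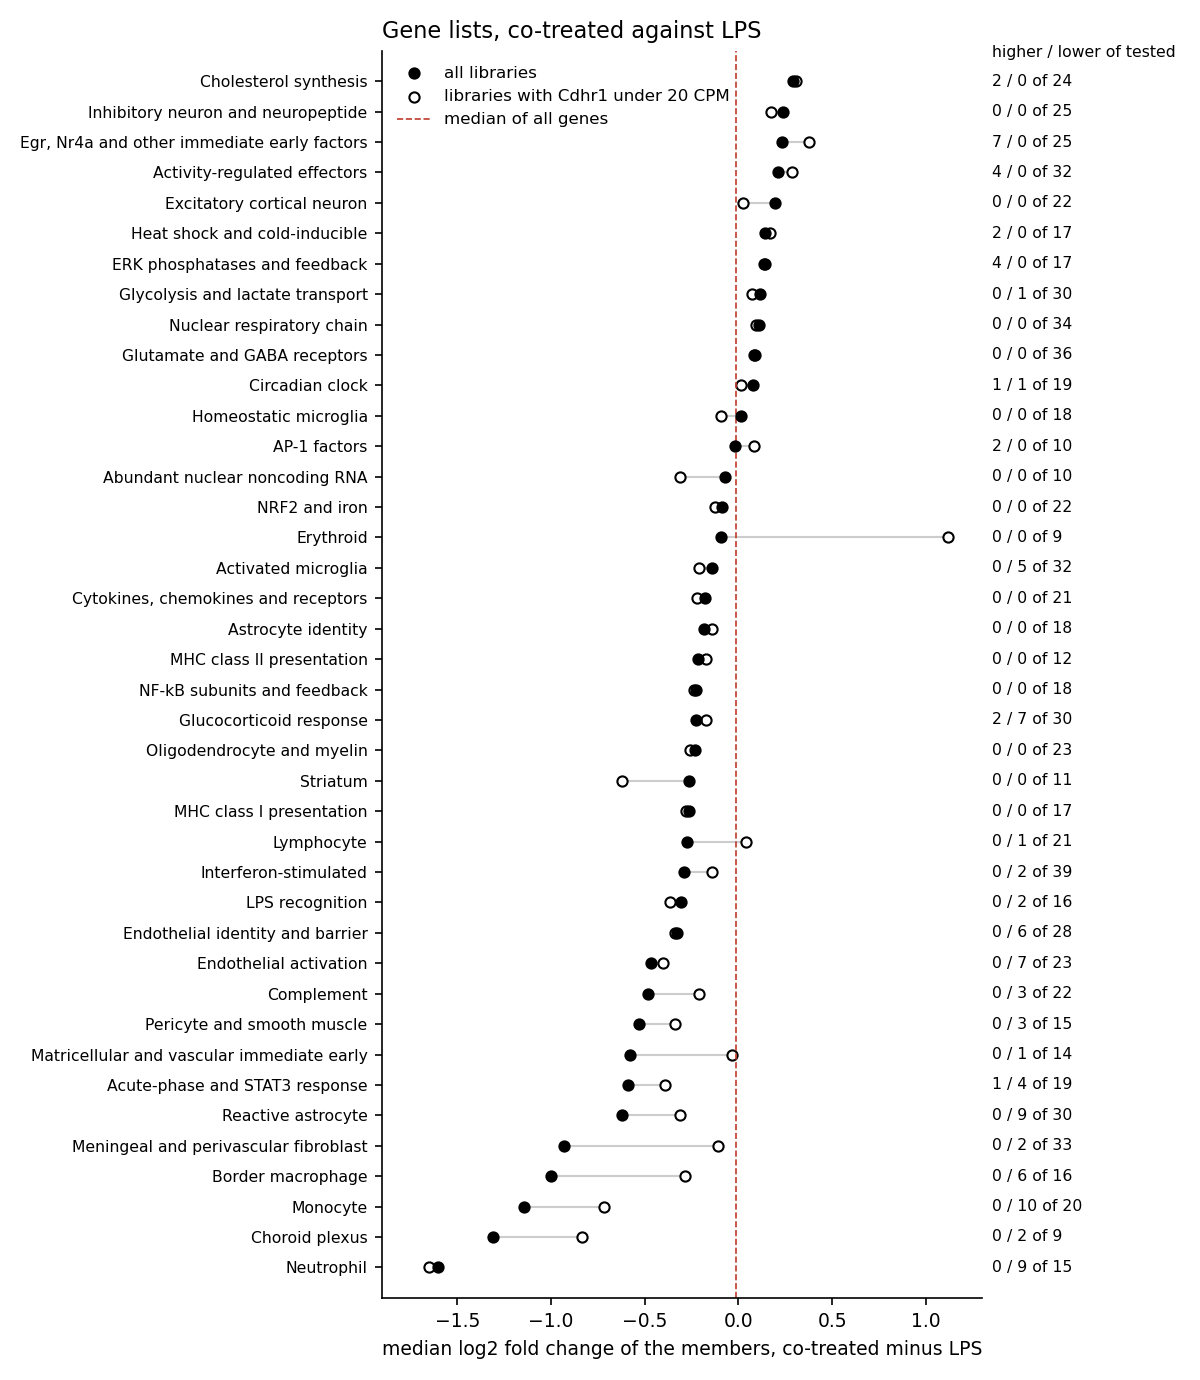
Median log2 fold change of co-treated over LPS cortex (horizontal axis) for 40 gene lists, filled for all libraries and open for those with Cdhr1 under 20 CPM, with the all-gene median dashed and the called counts at the right. The olfactory bulb list, at -4.17, is off the scale and not drawn. The border macrophage and fibroblast medians lie nearer 0 in the open symbols (-0.29 and -0.11). The neutrophil median is -1.60 in the filled and -1.65 in the open symbol. It is partly set by the expression filter, which its genes could pass through the LPS libraries alone. Of the 15 neutrophil genes, 9 were called lower with all libraries and 2 in those with Cdhr1 under 20 CPM.

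The mean of the 33 fibroblast genes was also entered as a covariate, an alternative chosen after seeing the data. Then 62 genes were called, 14 higher and 48 lower. That index itself differed between the groups, with medians of 3.45 in LPS and 2.58 in co-treated libraries. The covariate can therefore take up part of the group difference. The smaller count does not measure how far fibroblast content accompanied the calls. A total of 25 genes were called in each of these fits: all libraries, Cdhr1-poor libraries only, the bulb index as covariate and the fibroblast index as covariate. The 8 higher ones were Arc, Egr2, Gpr3, Fos, Nr4a1, Dusp1, Dusp6 and Arl4d, and the 17 lower ones included Vwf, Igfbp7, Itgal, Retnlg, Mmp9, Lcn2, Hp, Clec4e, Spn and Ear2. Itgal had an adjusted p of 0.0012 with the fibroblast covariate, Vwf 0.00258 and Arc 0.000587. The means of some lists are plotted against the fibroblast index, and whether they depend on it was not tested.

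**Figure D5:**
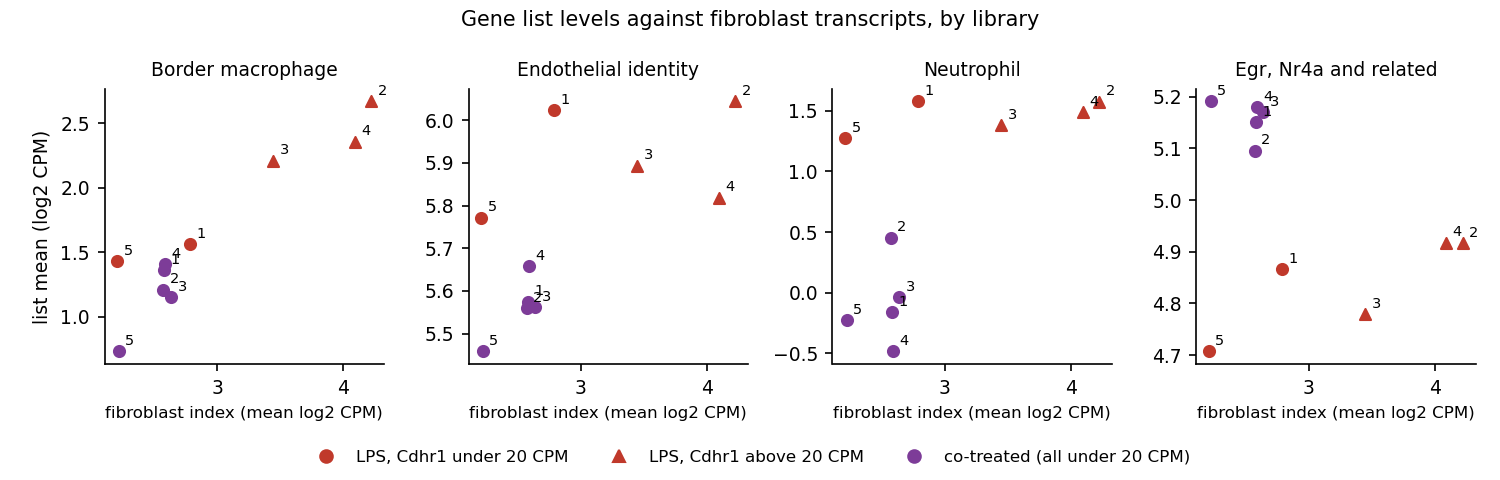
Mean log2 CPM of 4 gene lists (vertical axes) against the mean log2 CPM of the 33 fibroblast genes (horizontal axis) in the 5 LPS and 5 co-treated libraries, triangles marking LPS libraries with Cdhr1 over 20 CPM. LPS replicate 5, with a fibroblast index of 2.21, has a border macrophage mean of 1.43 against 0.73 to 1.41 in co-treated libraries. Its neutrophil mean is 1.27 against at most 0.45. These values are of 1 LPS library, and the neutrophil genes could pass the expression filter through the LPS libraries alone.

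The effect of sedanolide under LPS was compared with its effect without LPS by an interaction term (co-treated minus LPS, less sedanolide minus control). It called 104 genes (0.586%). For comparison, 1965 genes (11.1%) were called between co-treated and control, 1938 (10.9%) between LPS and control, and 943 (5.31%) between sedanolide and control. The interaction was positive for Fos (2.12, adjusted p = 0.00105), Egr2 (1.90, adjusted p = 5.48e-06), Dusp1 (1.75, adjusted p = 0.000472), Arc (1.70, adjusted p = 0.00182), Nr4a1 (1.63, adjusted p = 0.00526) and Junb (1.51, adjusted p = 0.000596), all by edgeR. For these genes the change with sedanolide alone was negative or not called. Egr2 was at 24.2 to 30.1 CPM in control and 15.7 to 20.6 CPM with sedanolide alone (-0.54, adjusted p = 0.0161, edgeR), and Arc had -0.24 (adjusted p = 0.402). The interaction was negative for the endothelial genes Vwf (-1.46, adjusted p = 0.0457) and Slc2a1 (-0.94, adjusted p = 0.0351). The interaction was not called for Itgal (adjusted p = 0.13), Retnlg (0.264), S100a9 (0.726) or C3 (0.799). Of the 299 genes lower in co-treated than in LPS cortex, 209 (69.9%) also had a negative fold change of sedanolide against control, a comparison that uses other libraries. The same sign was seen for 28 of the 51 higher genes (54.9%) and for 60.3% of all genes tested. Cdhr1 also differed among the controls, at 5.01 and 5.85 CPM in replicates 2 and 4 and 445 and 213 CPM in replicates 1 and 5. The fibroblast index was 3.74, 3.82, 2.35 and 3.37 in control replicates 1, 2, 4 and 5, and 2.27 to 2.77 with sedanolide alone. Sedanolide against control thus also differed in fibroblast content, and its part in the shared signs was not tested. Without control replicate 5 the interaction called 33 genes, and without control replicate 2 it called 242.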

How the data were processed

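The authors deposited 1 table of whole-number counts per gene for all 19 libraries, named as featureCounts output, with 57010 genes. Per the labels' protocols, RNA was extracted with TRIzol and libraries were made by poly(A) capture and ligation with a stranded kit. Per the submitters' processing notes, fastp, HISAT2, StringTie, RSEM and DESeq2 were used, with no versions or order. The genome build and the strand setting of counting are not given in the sources used here, so antisense and overlapping genes and close paralogs may share reads. Gene symbols came from the table.

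Genes were kept by filterByExpr, leaving 17757, scaled by TMM and tested by edgeR 4.0.16 (R 4.3.3) with the robust quasi-likelihood test, 1 mean per group over all 19 libraries, two-sided, with Benjamini-Hochberg adjustment over all genes tested. The filter can be passed through the libraries of a single group. Calls were made at an adjusted p of 0.05. The SE is the fold change divided by the square root of F. CPM uses TMM-scaled library sizes. No 2 libraries of a group were identical. Library measures were compared by exact permutation (SciPy 1.17.1). DESeq2 1.42.0 was an alternative. Alternatives covered scaling, filters, a replicate block, covariates, length and GC offsets, subsets and leaving out each library.

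Among protein-coding genes with a mean log2 CPM of at least 1, the text names from the 12 largest fold changes and the 10 smallest p-values called in each direction, a panel of study genes (complement, glycolysis and glial markers), up to 4 called members of each of 41 lists in each direction with the smallest p and its most abundant member, and 5 interaction genes in each direction. The members and lists were chosen with earlier results of these data known. Other members of a list that are named were chosen after their values were seen.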

Additional observations from a re-analysis of the deposited data

Results flagged for a closer look

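A Dixon test of the highest and lowest library was run in 102 groups of 5 libraries, the LPS and co-treated values of 51 genes, and 12 groups held a library apart from the other 4. Chance alone gives about 1 in 20. In LPS replicate 2, Myh11 was at 126 CPM against 24 to 42.8 in the other LPS libraries, Igfbp7 at 151 against 97.8 to 112, Ldha at 229 against 288 to 309 and Csrnp1 at 8.35 against 9.93 to 10.4. LPS replicate 4 stood apart for Fos (54 CPM against 23.2 to 30.0) and S100a9 (19.5 against 13.6 to 14.9), and LPS replicate 5 for Tspan4 (19.3 against 26.2 to 27.4). Co-treated replicate 2 stood apart for Egr1 (460 CPM against 411 to 420) and Lcn2 (8.58 against 6.19 to 6.54), replicate 4 for Vwf (57.2 against 42.6 to 46.8), and replicate 5 for C3 (7.07 against 4.73 to 5.41) and P4ha1 (86.8 against 77.4 to 78.9).

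For 14 of the same 51 genes the difference between co-treated and LPS was not that between sedanolide and control, by the interaction term in edgeR. Over all genes tested the term called 104 of 17757 (0.586%). Many of the 51 were named for their co-treated against LPS difference, which is part of the term, so the 2 shares are not comparable. On the log2 scale, the interaction was positive for Fos (2.12, adjusted p = 0.00105), Egr2 (1.90, 5.48e-06), Dusp1 (1.75, 0.000472), Arc (1.70, 0.00182), Nr4a1 (1.63, 0.00526), Junb (1.51, 0.000596), Arl4d (1.21, 0.00182) and Gpr3 (0.72, 0.0439). Of these, Fos, Egr2, Dusp1, Nr4a1, Junb and Arl4d had fold changes of opposite sign in the 2 settings, for example 0.93 under LPS and -1.19 without it for Fos. The interaction was negative for Emilin2 (-1.92, adjusted p = 0.0387), Vwf (-1.46, 0.0457), Slc38a5 (-1.41, 0.0420), Srarp (-1.14, 0.0111), Bcam (-0.98, 0.0418) and Slc2a1 (-0.94, 0.0351). Slc2a1 had -0.59 under LPS and 0.35 without it.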

How the results depend on the processing

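Between co-treated and LPS libraries 350 genes were called, 51 higher and 299 lower. It called 321 with RLE factors, 309 with upper-quartile factors, 259 without the expression filter and 332 with a filter of 1 CPM in 4 libraries. Other settings moved the total, the higher and the lower count to 106, 25 and 81 with the bulb index as covariate, 35, 14 and 21 in libraries with Cdhr1 under 20 CPM, 546, 179 and 367 with length and GC offsets, 723, 158 and 565 when fitted on the LPS and co-treated groups alone, 62, 14 and 48 with the fibroblast index as covariate (chosen after seeing the data), and 904, 195 and 709 with DESeq2. The cause was not tested. Of the 350 genes, 32 were called in the libraries with little Cdhr1, where 343 of 344 retested kept their sign, and 350 were called by DESeq2. Leaving out 1 library gave totals of 141 to 590 (without LPS replicates 2 and 5), 26 to 70 higher (without co-treated replicate 1 and LPS replicate 5) and 113 to 520 lower (without LPS replicates 2 and 5). Of 89 named genes called, 47 were called in all 10 of those fits. Non-overlapping libraries numbered 591 higher and 817 lower, 631 and 821 with RLE factors, and 358 and 1043 with no factor.

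Same-numbered LPS and co-treated libraries had correlations of -0.18 to -0.002, and none correlated best with its own number. These values gave no sign of pairing by replicate number. A shared batch could go unseen, since bulb and fibroblast transcripts varied among LPS libraries and little among co-treated ones. With the replicate block 145 genes were called, 22 higher and 123 lower, 954 between co-treated and control and 32 for the interaction.

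Co-treated against control gave 1965 calls, but 1244 without the filter, 1080 with the bulb covariate, 615 in the libraries with little Cdhr1, 1059 with the fibroblast covariate and 876 to 2907 without 1 library (control replicates 5 and 2). LPS against control gave 1938, but 848 with little Cdhr1 and 1308 to 2478 without 1 library (again control replicates 5 and 2). The interaction gave 104, but 268 with the bulb covariate, 20 with little Cdhr1, 193 with the fibroblast covariate, 441 with DESeq2 and 33 to 242 without 1 library.

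Among the named genes, 4 changed sign under an alternative. Prg4, called lower with all libraries, was 0.0339 in the libraries with little Cdhr1. Pfkfb3 was 0.0343 with length and GC offsets and -0.0540 to 0.0211 without 1 library, above 0 without LPS replicate 5 and without co-treated replicate 3. Gfap was 0.18 with the bulb covariate. Aif1 was -0.33 with the bulb covariate, -0.29 with little Cdhr1, -0.0644 with length and GC offsets, -0.18 with the fibroblast covariate and -0.0823 to 0.220 without 1 library, against 0.01 as reported.

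Genes with few counts, such as Selp, Ear2 and Clec4e, limit the precision of their fold changes, and with 5 libraries a group modest differences can miss the threshold.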

Other observations

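The 17 genes named above fell with all libraries, with the libraries low in Cdhr1, and with each index as covariate. Of these, 6 lie outside the lists and the rule for naming genes and were chosen after their values were seen. Cd5l, a scavenger-receptor protein of tissue macrophages, had 20 to 168 counts in LPS and 1 to 3 in co-treated libraries, or 1.01 to 7.24 against 0.0431 to 0.138 CPM. Its log2 fold change was -5.37 ± 0.61 (adjusted p = 0.000154, edgeR). Cd300e had 29 to 71 counts against 6 to 8, Cd300ld 18 to 59 against 2 to 6, and Treml4 26 to 95 against 4 to 8, all myeloid surface receptors, the Cd300 members having close paralogs. Plbd1, a phospholipase of granulocytes and monocytes, was at 1.60, 3.45, 3.45, 2.42 and 2.89 CPM in LPS and 0.642, 0.836, 0.705, 0.708 and 0.646 CPM in co-treated libraries. The groups did not overlap for any of these 5 genes. Sfrp1, a secreted inhibitor of Wnt signalling, was at 37.2 to 63.5 CPM in LPS and 28.6 to 32.3 CPM in co-treated libraries (-0.67 ± 0.16, adjusted p = 0.0296, edgeR), and lost its call in 7 of the 10 fits without 1 library.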
